A study of Saccharomyces cerevisiae YPS1009 with 40 samples.

Results

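The genes described here encode the protein-folding machinery of the mitochondrial matrix and its quality-control protease in budding yeast. They were chosen by name and function by a rule that uses no measured value, although earlier results of these data were known when they were proposed, and number 8 of the 6714 genes in the count table: HSP60 (YLR259C), HSP10 (YOR020C), SSC1 (YJR045C), ECM10 (YEL030W), MDJ1 (YFL016C), MGE1 (YOR232W), HSP78 (YDR258C) and PIM1 (YBL022C). All 8 passed the filter on low counts, which 5864 genes passed. Their transcripts were followed in haploid MATa derivatives of the wild isolate YPS1009: YPS1009_Chr4, YPS1009_Chr12, YPS1009_Chr14 and YPS1009_Chr15, each carrying an extra copy of the named chromosome, and YPS1009_euploid. Each strain was grown in rich YPD medium at 30 °C and sampled in log phase and after 1, 3 and 7 days. There were 20 groups of 2 cultures, 40 libraries in all. By the study's strain list, YPS1009_Chr12 and YPS1009_euploid carry a hygromycin-marked deletion of HO, whereas YPS1009_Chr4, YPS1009_Chr14 and YPS1009_Chr15 carry the allele ho-Δ1, so the extra chromosome and the HO allele cannot be told apart in those 3 strains. The labels describe added glass beads as a modification of the RNA extraction for quiescent samples, and time in culture and this modification cannot be told apart.

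Total counts per log-phase library ran from 4182717 to 7036849. They ran from 1997415 to 3792145 at day 1, 1033073 to 2228477 at day 3 and 725316 to 2324046 at day 7. Levels are given as CPM (counts scaled to a common library total) after TMM scaling, which sets each library against its own S. cerevisiae RNA. Less RNA per cell cannot be seen on this scale. A rise is relative to most other genes of the library and need not be a larger share of its counts. For example, MGE1 in YPS1009_Chr4 at day 3 stood 0.95 (log2) above log phase on this scale and at -0.43 with library totals only. TMM factors were 0.316 to 0.536 in the YPS1009_Chr4 libraries of days 3 and 7 and 0.619 and 0.913 in those of YPS1009_Chr12 at day 7, and the 2 day 7 cultures of YPS1009_euploid had factors of 0.944 and 1.62. Transcripts encoded on mitochondrial DNA took a median of 0.293% of log-phase counts, and 3.26%, 5.85% and 4.78% of those of days 1, 3 and 7, with 11.3% and 9.91% in YPS1009_Chr4 and 12.99% and 10.8% in YPS1009_Chr12 at day 7. Their part in the results was not tested. Across all 20 groups and 8 genes, the higher culture exceeded the lower by a median of 1.14-fold, and by up to 3.66-fold (ECM10 in YPS1009_euploid at day 7). The extra chromosome was visible in every aneuploid. In log phase, genes on it stood above genes elsewhere by a median of 0.89 to 0.99 (log2) in the comparison of each aneuploid with YPS1009_euploid.

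Nearly all mitochondrial proteins are made in the cytosol and enter the organelle unfolded. In the matrix, the Hsp70 Ssc1 pulls them through the inner membrane and folds them with the J protein Mdj1, which stimulates its ATPase, and the nucleotide exchange factor Mge1, which resets it. The chaperonin, a barrel of Hsp60 closed by a lid of Hsp10, folds a further set of proteins inside its cavity. Hsp78, a ClpB-type disaggregase, pulls proteins out of aggregates. Pim1, the yeast Lon protease, degrades what cannot be refolded. Ecm10 is a paralog of Ssc1 that resides in the same compartment. HSP60, HSP10, SSC1 and MGE1 are essential for growth, whereas ECM10 and HSP78 are not.

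In the S288C reference (RefSeq assembly R64), HSP60 lies on chromosome XII, HSP10 and MGE1 on chromosome XV and HSP78 on chromosome IV, so that each of these 4 was duplicated in 1 of the aneuploids. SSC1 (X), ECM10 (V), MDJ1 (VI) and PIM1 (II) were duplicated in none, and no member lies on chromosome XIV. None of the 8 genes overlaps another annotated gene. The 500 bases before each start codon were searched on both strands for the heat shock element GAANNTTCNNGAA, bound by Hsf1, its gapped forms GAANNTTCNNNNNNNGAA and GAANNNNNNNTTCNNGAA, and the stress response element AGGGG, bound by Msn2 and Msn4. The ungapped heat shock element stands in the promoters of 3 members (HSP60, HSP10 and HSP78) and in 1.48% of 6000 promoters of the same length. AGGGG stands in those of SSC1, ECM10, MDJ1 and HSP78 and in 34.1% of all promoters. The form gapped after its leading unit was found in HSP78 (0.983% of all promoters), and the other gapped form in no member (1.2% of all). MGE1 and PIM1 held none of these letters. The stretches below are shown for the members with a heat shock element and for ECM10 and HSP10, the members with the largest rise and fall in euploid cells at day 3. Each reads 5′ to 3′ on the coding strand, in the sequence of S288C, which YPS1009 may depart from, and capitals mark the matches.
HSP60, chrXII:665163-665252, minus strand, from 250 bases before the start codon: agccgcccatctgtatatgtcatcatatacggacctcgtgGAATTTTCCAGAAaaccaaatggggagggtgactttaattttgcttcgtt
HSP10, chrXV:370955-371044, minus strand, from 200 bases before the start codon: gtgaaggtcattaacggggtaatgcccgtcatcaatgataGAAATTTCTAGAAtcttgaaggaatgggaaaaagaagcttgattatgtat
HSP78, chrIV:974364-974503, minus strand, from 260 bases before the start codon: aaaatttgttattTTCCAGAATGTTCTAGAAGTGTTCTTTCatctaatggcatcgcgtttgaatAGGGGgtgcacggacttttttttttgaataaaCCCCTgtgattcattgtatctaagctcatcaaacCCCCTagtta
ECM10, chrV:94394-94483, plus strand, from 250 bases before the start codon: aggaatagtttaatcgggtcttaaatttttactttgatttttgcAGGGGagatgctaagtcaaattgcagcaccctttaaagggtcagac
HSP60 and HSP10 each hold 1 ungapped element. The run of capitals in HSP78 joins 2 overlapping ungapped matches and the gapped one, and AGGGG follows 3 times, once forward and in the other cases as CCCCT. A match is a description of these letters and was not tested for binding.

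On the per-length scale (CPM per kb of coding sequence), the members covered a wide range in log phase. In YPS1009_euploid, HSP10 averaged 649 ± 12.9 CPM per kb (SD, n = 2), SSC1 429 ± 114, HSP60 413 ± 43.1, MGE1 262 ± 3.37, PIM1 75.4 ± 2.06, MDJ1 48.1 ± 3.66, ECM10 6.48 ± 0.946 and HSP78 6.34 ± 1.74. The neighbours SSC1 and HSP60, and ECM10 and HSP78, differed by less than their spread. HSP10, SSC1, HSP60 and MGE1 were thus the abundant transcripts of growing cells, and the ECM10 and HSP78 transcripts were scarce.

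**Figure D1:**
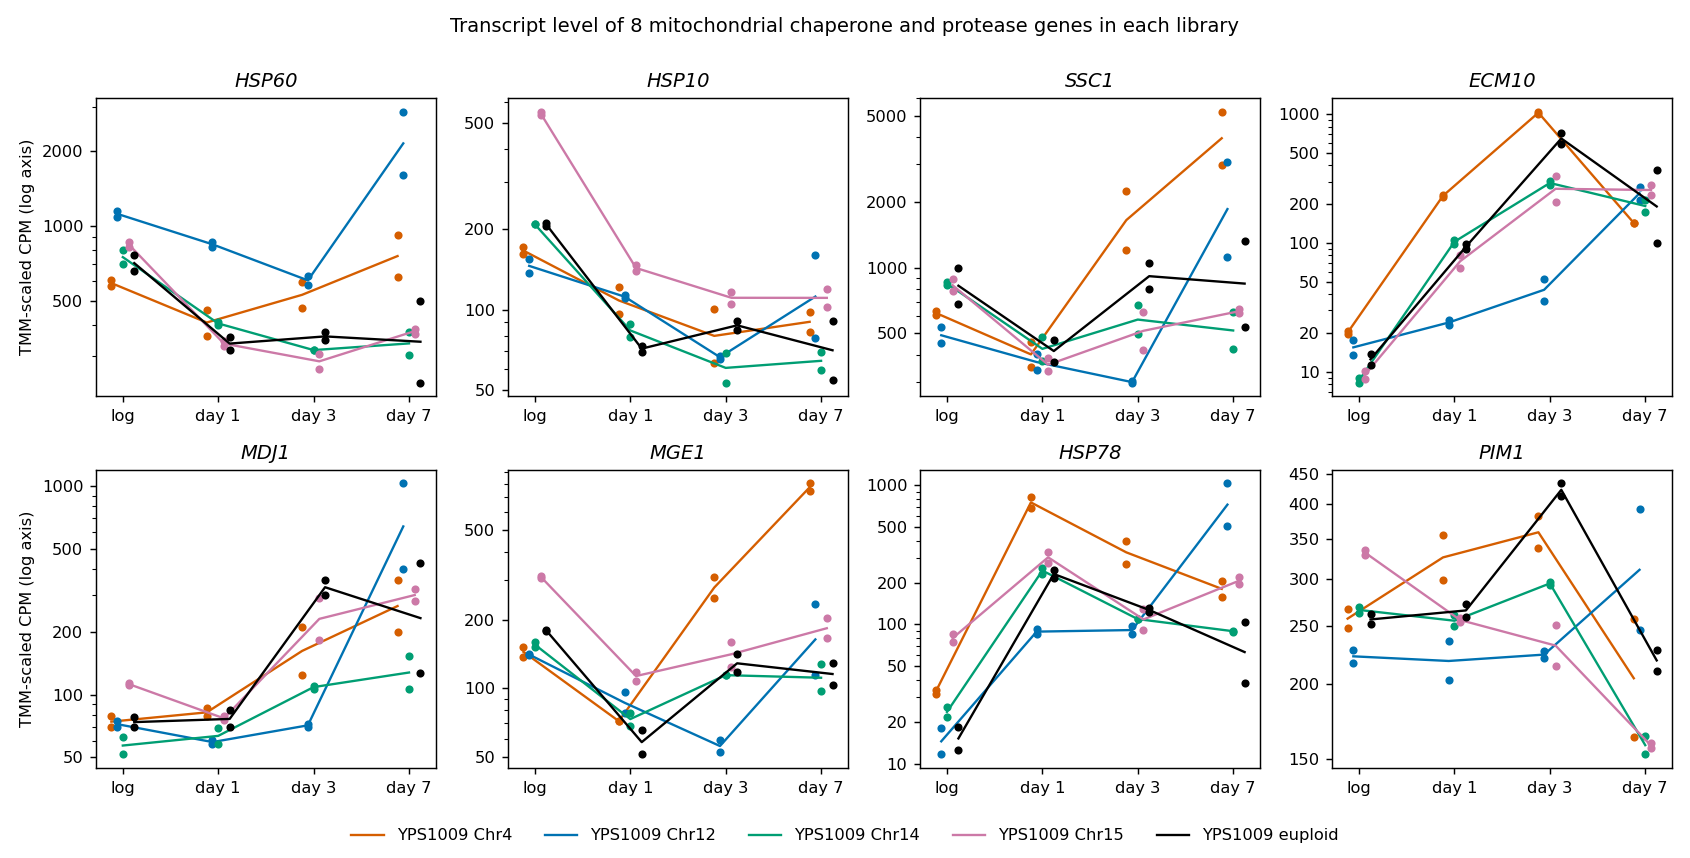
Transcript level of each of the 8 genes (TMM-scaled CPM, log axis) in log phase and at days 1, 3 and 7. Points are single cultures, 2 per group, and lines join the geometric means of YPS1009_Chr4, YPS1009_Chr12, YPS1009_Chr14, YPS1009_Chr15 and YPS1009_euploid. ECM10 and HSP78 lie far above their log-phase level at later days, and HSP10 lies below it in most strains.

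The first question was how these transcripts change as cultures pass from growth into the stationary days. Over 5 strains, 3 days and 8 genes, 46 of 120 comparisons with log phase were called higher (38.3%) and 38 lower (31.7%). Over all genes tested, 35.4% of comparisons were called higher and 36.9% lower, so the share of calls among the members was near the background, and the pattern lies in which members moved which way. ECM10 and HSP78 were called higher in 14 of 15 comparisons each and lower in none. HSP10 was called lower in 13 and higher in none. HSP60 was called lower in 10 and higher in 1, MDJ1 higher in 9, MGE1 higher in 2 and lower in 9, SSC1 higher in 3 and lower in 3, and PIM1 higher in 3 and lower in 3. In a fit without the 6 libraries of YPS1009_Chr4 at days 3 and 7 and YPS1009_Chr12 at day 7, chosen after the data were seen, 29 of the remaining 96 comparisons were higher and 45 lower, against 29 and 36 for the same comparisons in the fit with all libraries. Over all genes in the fit without these libraries, 37% of comparisons were called higher and 36.6% lower.

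**Figure D2:**
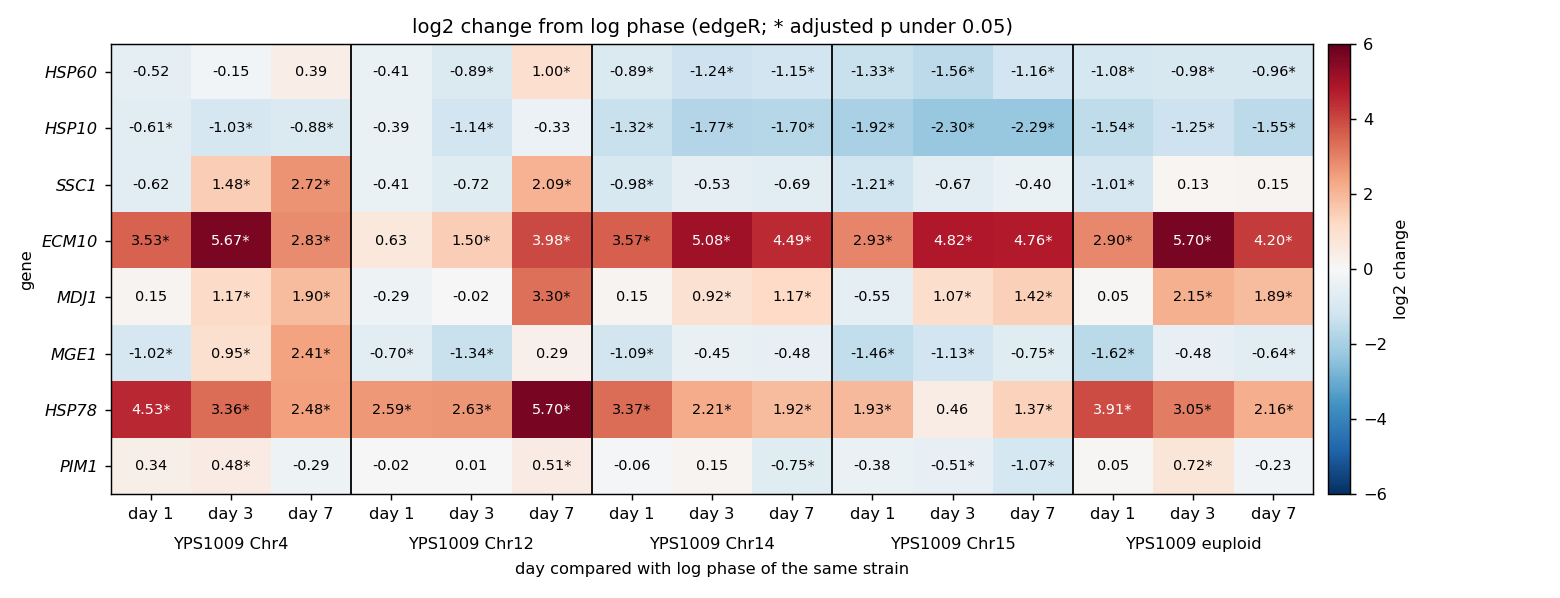
log2 change of each gene from log phase to days 1, 3 and 7 of the same strain (edgeR, 2 cultures a group), with the 4 aneuploids left of YPS1009_euploid. Asterisks mark an adjusted p under 0.05. ECM10 and HSP78 are red in all 5 strains, HSP10 is blue in all 5, and SSC1 and MGE1 turn red in YPS1009_Chr4 at days 3 and 7, of which the day 3 values fell below 0 when a gene had to reach 10 counts in every library.

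HSP60 encodes the barrel of the chaperonin and HSP10 its lid. Both fell in euploid cells after log phase. HSP60 was at 762 and 657 CPM in log phase of YPS1009_euploid, 357 and 317 at day 1, 373 and 346 at day 3, and 500 and 234 at day 7. Every later library was thus below both log-phase libraries. The log2 changes were -1.08 ± 0.28 (SE, adjusted p = 0.00103) at day 1, -0.98 ± 0.28 (adjusted p = 0.00206) at day 3 and -0.96 ± 0.28 (adjusted p = 0.00266) at day 7. Without the lower of the 2 day 7 libraries, replicate 2, the day 7 change was -0.50 (adjusted p = 0.0918). HSP10 was at 206 and 211 CPM in log phase, 73.4 and 69.6 at day 1, 90.7 and 84.1 at day 3, and 90.9 and 54.5 at day 7. Its log2 changes were -1.54 ± 0.24 (adjusted p = 1.99e-06), -1.25 ± 0.25 (adjusted p = 4.13e-05) and -1.55 ± 0.25 (adjusted p = 2.15e-06).

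The fall of HSP10 recurred in the aneuploids. YPS1009_Chr15 started from 537 and 552 CPM in log phase and held 147 and 140 at day 1, 117 and 105 at day 3, and 119 and 103 at day 7, which was 0.204-fold its log-phase level at both day 3 and day 7. YPS1009_Chr14 reached 0.294-fold at day 3 and 0.308-fold at day 7. In YPS1009_Chr4 the changes were -0.61, -1.03 and -0.88, of which the day 1 value was -0.45 (adjusted p = 0.202) without replicate 2 of day 1. In YPS1009_Chr12, -1.14 ± 0.24 at day 3 passed the test (adjusted p = 0.00016), and the values of day 1 (-0.39) and day 7 (-0.33) did not. All 13 falls of HSP10 were also called under the 5 other settings of scaling, filter or tool.

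HSP60 fell at all 3 days in YPS1009_Chr14 (-0.89, -1.24 and -1.15) and YPS1009_Chr15 (-1.33, -1.56 and -1.16). In YPS1009_Chr4 none of the 3 days passed the test (-0.52, -0.15 and 0.39). YPS1009_Chr12, with its extra copy, held 1087 and 1147 CPM in log phase, 822 and 863 at day 1, 578 and 631 at day 3, and 2869 and 1598 at day 7. Its day 3 libraries were thus the lowest of this strain and its day 7 libraries the highest. The day 3 change was -0.89 ± 0.27 (adjusted p = 0.00586), and -0.83 (adjusted p = 0.0507) without replicate 1 of day 3. The day 7 change was 1.00 ± 0.28 (adjusted p = 0.00185), 0.52 (adjusted p = 0.115) without replicate 1 of day 7, and -0.36 when a gene had to reach 10 counts in every library.

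Because both genes were read in the same library, their ratio does not depend on how libraries are scaled. In YPS1009_Chr12 the HSP60 to HSP10 ratio per kb was 1.47 and 1.38 in log phase, 1.39 and 1.42 at day 1, 1.64 and 1.75 at day 3, and 3.32 and 3.79 at day 7. The YPS1009_Chr15 values were 0.301 and 0.278 in log phase, 0.437 and 0.439 at day 1, 0.488 and 0.473 at day 3, and 0.603 and 0.670 at day 7. In YPS1009_euploid it was 0.692 and 0.581 in log phase, 0.908 and 0.849 at day 1, 0.765 and 0.766 at day 3, and 1.02 and 0.800 at day 7. All 8 YPS1009_Chr12 libraries were thus above 1 and all 8 YPS1009_Chr15 libraries below it.

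Over the 4 time points, the log2 ratio was 1.24 higher in YPS1009_Chr12 than in YPS1009_euploid (0.90 ± 0.59 against -0.34 ± 0.25, SD, n = 8 each), with no overlap at any of the 4 time points (exact two-sided permutation of strain labels within time points, p = 0.00154, the smallest the 1296 arrangements allow, adjusted p = 0.00494 over 16 tests). It was 0.83 lower in YPS1009_Chr15 (difference -0.83, exact permutation, adjusted p = 0.00494), again with no overlap at any of the 4 time points. YPS1009_Chr12 carries the extra HSP60 and YPS1009_Chr15 the extra HSP10. In YPS1009_Chr4 the difference was 0.30 (time points from -0.32 to 0.77, adjusted p = 0.15) and in YPS1009_Chr14 0.14 (from 0.04 to 0.35, adjusted p = 0.128), both by the exact permutation test. Over the 5 strains, the ratio was higher than in log phase by 0.31 at day 1, 0.54 at day 3 and 0.95 at day 7 (exact permutation of time labels within strains, adjusted p = 0.00386, 0.000772 and 0.000772 over 12 tests, n = 10 libraries a time point). The rise held in all 5 strains at days 3 and 7 and in 4 of 5 at day 1. HSP10 thus fell relative to HSP60.

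**Figure D3:**
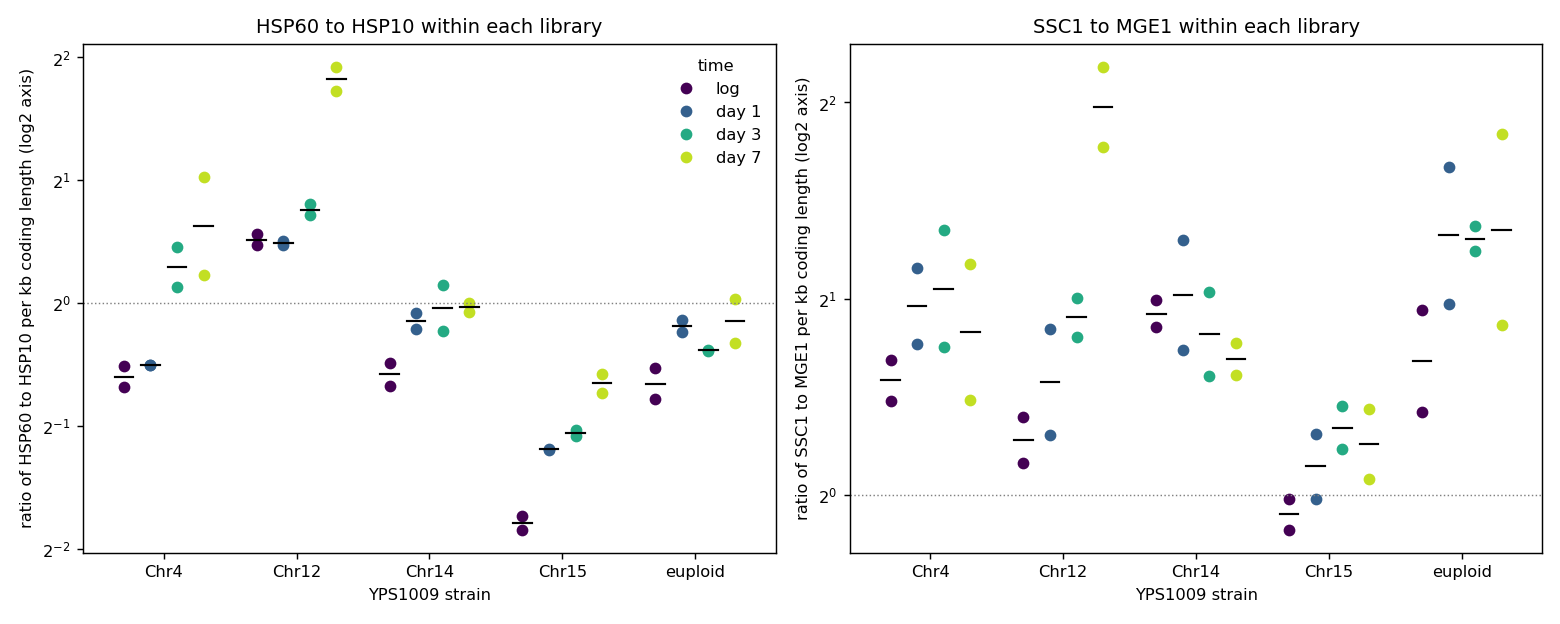
HSP60 to HSP10 (left) and SSC1 to MGE1 (right) per kb of coding length within each library, on a log2 axis, for the 4 aneuploids and YPS1009_euploid. Points are single cultures coloured by time and bars their geometric mean. HSP60 to HSP10 is above 1 in every YPS1009_Chr12 library and below 1 in every YPS1009_Chr15 library, and the SSC1 to MGE1 ratio is low in YPS1009_Chr15.

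SSC1 encodes the essential matrix Hsp70. In YPS1009_euploid it was at 1001 and 685 CPM in log phase, 467 and 369 at day 1, 1049 and 800 at day 3, and 1334 and 537 at day 7. Day 1 was the low point, with a log2 change of -1.01 ± 0.39 (adjusted p = 0.0231) that was -0.71 (adjusted p = 0.187) without replicate 1 of log phase. Days 3 and 7 stood at 0.13 and 0.15 and did not pass the test. The fall at day 1 was also called in YPS1009_Chr14 (-0.98, but -0.81 with adjusted p = 0.165 without replicate 2 of day 1) and YPS1009_Chr15 (-1.21, but -1.11 with adjusted p = 0.0621 without replicate 2 of day 1).

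In YPS1009_Chr4, SSC1 stood at 607 and 637 CPM in log phase, 458 and 351 at day 1, 2262 and 1213 at day 3, and 5205 and 2973 at day 7. Both day 7 libraries of this strain were above all 8 YPS1009_euploid libraries. The change from log phase was 2.72 ± 0.41 at day 7 (adjusted p = 8.5e-07). At day 3 it was 1.48 ± 0.40 (adjusted p = 0.0013), 0.83 (adjusted p = 0.0772) without replicate 1 of day 3, 0.07 (adjusted p = 0.807) with library totals only, and -0.30 with genes kept only at 10 counts in every library. In YPS1009_Chr12, 535 and 450 CPM in log phase and 301 and 297 at day 3 contrasted with 3074 and 1127 at day 7 (2.09 ± 0.40 from log phase, adjusted p = 3.36e-05). These 2 strains hold the groups with the lowest TMM factors, and the median of all genes was -0.73 for day 7 against log phase in YPS1009_Chr4 on the TMM scale and -2.52 with library totals only.

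ECM10, the paralog of SSC1, had the largest rise in euploid cells at day 3. It was at 11.2 and 13.8 CPM in log phase of YPS1009_euploid, 89.8 and 97.3 at day 1, 720 and 583 at day 3, and 367 and 100.4 at day 7. The rise was 7.48-fold at day 1, 52.0-fold at day 3 (log2 5.70 ± 0.40, adjusted p = 1.81e-13) and 18.4-fold at day 7. YPS1009_Chr4 went higher still at day 1, with 229 and 236 CPM. It was at 1011 and 1045 at day 3, with TMM factors of 0.420 and 0.536, and at 144 and 142 at day 7. The day 3 raw counts of this strain were 532 and 579 of 1252291 and 1033073. Those of YPS1009_euploid were 698 and 638 of 1219966 and 1212274, and the day 3 difference was not called. YPS1009_Chr14 rose 33.9-fold and YPS1009_Chr15 28.3-fold by day 3.

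In YPS1009_Chr12, ECM10 stayed low until day 7. Its level was 13.4 and 17.8 CPM in log phase, 25.4 and 22.9 at day 1, 35.5 and 52.7 at day 3, and 216 and 274 at day 7. Against YPS1009_euploid, the difference was -1.95 ± 0.35 at day 1 (adjusted p = 9.76e-05) and -3.89 ± 0.36 at day 3 (adjusted p = 5.33e-10), with no overlap of libraries at either day. These 2 calls held under all 5 other settings and without each library. The 14 rises of ECM10 also held in all of them. By day 3, ECM10 counts came to as much as 86.2% of SSC1 counts in a library, whereas they were at most 3.95% in log phase. The coding sequences of the paralogs are 74.8% identical over 1974 aligned bases, and none of the 50-base windows of ECM10 occurs unchanged in SSC1. How reads that fit both were counted was not given in the sources used here. The lowest ECM10 count in a library was 0.987% of its SSC1 count, which limits how many SSC1 reads ECM10 could have received there.

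MDJ1 encodes the J protein that brings substrates to Ssc1 and starts its cycle. It kept its log-phase level at day 1 in YPS1009_euploid (83.9 and 69.6 CPM, against 77.9 and 69.9 in log phase) and stood at 356 and 302 CPM at day 3 and 429 and 126 at day 7. The changes were 2.15 ± 0.39 at day 3 (adjusted p = 1.1e-05) and 1.89 ± 0.39 at day 7 (adjusted p = 7.11e-05, and 0.0618 with only the groups compared in the fit). The day 3 level was lower in YPS1009_Chr12 and YPS1009_Chr14. YPS1009_Chr12 held 70.0 and 72.4 CPM at day 3 (difference from YPS1009_euploid -2.21 ± 0.40, adjusted p = 1.69e-05), and then 1031 and 399 CPM at day 7. YPS1009_Chr14 held 106.9 and 110.3 CPM at day 3 (difference -1.60 ± 0.39, adjusted p = 0.0068, and -1.57 with adjusted p = 0.081 without replicate 1 of YPS1009_Chr14). The rise from log phase by day 3 was 1.17 in YPS1009_Chr4, 0.92 in YPS1009_Chr14 and 1.07 in YPS1009_Chr15, and none of these 3 changes passed the test of its difference from the euploid change. Each of the 3 calls was lost without 1 library, with adjusted p = 0.226 without replicate 1 of YPS1009_Chr4 day 3, 0.144 without replicate 2 of YPS1009_Chr14 log phase and 0.155 without replicate 1 of YPS1009_Chr15 day 3. The YPS1009_Chr4 value was -0.22 with library totals only and -0.61 under the stricter filter, and the YPS1009_Chr14 value -0.21 under that filter. At day 7, YPS1009_Chr14 stood 1.17 above log phase, and 0.89 (adjusted p = 0.0789) without replicate 2 of that day. Under the stricter filter this value was 0.10 (edgeR, adjusted p = 0.755). The YPS1009_Chr15 values under that filter were 0.03 at day 3 and 0.32 at day 7 (edgeR, adjusted p = 0.929 and 0.268). Of the 9 MDJ1 rises called against log phase, 3 held under all 5 other settings.

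The SSC1 to MDJ1 ratio moved accordingly. It was lower than in log phase by 0.75 (log2) at day 1, 1.13 at day 3 and 1.15 at day 7 over the 5 strains (exact permutation, adjusted p = 0.00123, 0.00265 and 0.00401). In YPS1009_euploid it was 2.30 and 2.07 per kb at day 3, against 10.04 and 7.65 in log phase. YPS1009_Chr4 stood apart, with 8.35 and 7.56 at day 3 and 11.4 and 11.6 at day 7, all above the YPS1009_euploid libraries of the same days. Over 4 time points the ratio was 0.45 higher in YPS1009_Chr14 than in YPS1009_euploid (exact permutation, adjusted p = 0.0123) and 0.48 lower in YPS1009_Chr15 (adjusted p = 0.00494), in 4 of 4 time points each.

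MGE1 encodes the nucleotide exchange factor of Ssc1. In YPS1009_euploid it was at 182 and 178 CPM in log phase, 51.1 and 65.6 at day 1, 141 and 118 at day 3, and 130 and 103 at day 7. Day 1 was its low point, with a log2 change of -1.62 ± 0.24 (adjusted p = 6.68e-07). The day 3 value of -0.48 did not pass the test, and the day 7 value of -0.64 did (adjusted p = 0.0155) but not without replicate 2 of that day (-0.47, adjusted p = 0.112). The fall at day 1 was called in all 5 strains, with -1.02 in YPS1009_Chr4, -0.70 in YPS1009_Chr12 (-0.55, adjusted p = 0.116, without replicate 1 of day 1), -1.09 in YPS1009_Chr14 and -1.46 in YPS1009_Chr15.

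In YPS1009_Chr4, MGE1 then turned upward, at 310 and 251 CPM at day 3 and 803 and 742 at day 7, against 152 and 138 in log phase. Against YPS1009_euploid the difference was 1.11 ± 0.25 at day 3 (adjusted p = 0.000752) and 2.74 ± 0.25 at day 7 (adjusted p = 4.92e-10). The day 3 call was lost with library totals only (0.28, adjusted p = 0.238), whereas the day 7 call held under all 5 other settings and without each library. The change from log phase at day 3 (0.95) was -0.43 with library totals only and -0.83 under the stricter filter. YPS1009_Chr12 went the other way at day 3, with 52.4 and 59.1 CPM (difference from YPS1009_euploid -1.22 ± 0.25, adjusted p = 8.12e-05). This call was lost when a gene had to reach 10 counts in every library (-0.21, adjusted p = 0.266). YPS1009_Chr15, with its extra copy of MGE1, held 315 and 308 CPM in log phase.

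The SSC1 to MGE1 ratio per kb was 0.986 and 0.885 in log phase of YPS1009_Chr15, against 1.93 and 1.34 in YPS1009_euploid. Over 4 time points the log2 ratio differed by -1.003 in YPS1009_Chr15, with no overlap at any time point (exact permutation, adjusted p = 0.00494). The differences in the other aneuploids did not pass the test, at -0.31 (adjusted p = 0.15) in YPS1009_Chr4, -0.23 (adjusted p = 0.346) in YPS1009_Chr12 and -0.30 (adjusted p = 0.16) in YPS1009_Chr14. Against log phase the log2 ratio was higher by 0.33 at day 1, 0.41 at day 3 and 0.55 at day 7 over the 5 strains (exact permutation, adjusted p = 0.0171, 0.00401 and 0.0285), and the calls of days 1 and 7 were lost by medians over strains and without some single libraries. In YPS1009_Chr4 at day 7, where both genes stood far above log phase, the ratio was 2.26 and 1.40 and overlapped the 3.58 and 1.82 of YPS1009_euploid. MGE1 and SSC1 were also the closest pair of members, with Pearson's r = 0.85 over the 20 group means of log2 CPM, a description over groups that share strains, time points and library scaling.

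HSP78 encodes the disaggregase. In YPS1009_euploid it was at 12.5 and 18.4 CPM in log phase, 214 and 248 at day 1, 132 and 122 at day 3, and 105 and 38.2 at day 7. It was thus highest at day 1, 15.1-fold over log phase (log2 3.91 ± 0.36, adjusted p = 9.94e-11), and fell back to 4.47-fold by day 7. Day 3 lay below day 1 by -0.86 ± 0.32 (adjusted p = 0.0195, and 0.0934 without replicate 2 of day 3). YPS1009_Chr4, with its extra copy, held 33.8 and 31.5 CPM in log phase and 827 and 688 at day 1, which was 23.2-fold over its own log phase. In this strain the day 3 level was 397 and 274 CPM and the day 7 level 207 and 157. YPS1009_Chr14 followed the euploid course, with 232 and 257 CPM at day 1, 109 and 110 at day 3 and 90.3 and 88.5 at day 7.

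In YPS1009_Chr12 the highest level came at day 7 instead. HSP78 was at 84.8 and 93.1 CPM at day 1 (difference from YPS1009_euploid -1.38 ± 0.32, adjusted p = 0.00141), 84.8 and 98.1 at day 3, and 1034 and 512 at day 7, which was 52.1-fold over its log phase and 11.2-fold over YPS1009_euploid at day 7 (log2 3.49 ± 0.35, adjusted p = 1.02e-08). In YPS1009_Chr15 HSP78 was already high in log phase, at 75.1 and 84.9 CPM against 12.5 and 18.4 in YPS1009_euploid (5.21-fold, log2 2.38 ± 0.34, adjusted p = 7.07e-06), although the gene is not on chromosome XV. Its level at day 3 (130 and 91.2 CPM) was 0.46 above log phase and did not pass the test, the only one of 15 comparisons for HSP78 that did not. At day 7 YPS1009_Chr15 held 218 and 195 CPM, 3.01-fold over YPS1009_euploid (adjusted p = 0.000676). These 4 differences from YPS1009_euploid held under all 5 other settings and without each library, but both day 7 calls were lost with only the groups compared in the fit (3.40 in YPS1009_Chr12 and 1.57 in YPS1009_Chr15, adjusted p = 0.0799 and 0.446).

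Set against SSC1 in the same library, HSP78 rose by 4.12 (log2) from log phase by day 1, 2.42 by day 3 and 1.99 by day 7 over the 5 strains (exact permutation, adjusted p = 0.000772, 0.000772 and 0.00257). The exception at day 7 was YPS1009_Chr4, where the ratio differed from log phase by -0.19. Over 4 time points the HSP78 to SSC1 ratio was 1.43 higher in YPS1009_Chr15 than in YPS1009_euploid (adjusted p = 0.00494, exact permutation) and 0.57 higher in YPS1009_Chr14 (adjusted p = 0.0423). The YPS1009_Chr14 call did not hold with the replicate number as a block (adjusted p = 0.0536) or without some single libraries. In YPS1009_Chr4 the difference was 0.77 (adjusted p = 0.0864) and in YPS1009_Chr12 0.75 (adjusted p = 0.15).

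PIM1 encodes the Lon protease. Its 15 changes from log phase ran from -1.07 to 0.72 on the log2 scale, the narrowest range of the 8 genes. In YPS1009_euploid it was at 252 and 262 CPM in log phase, 259 and 272 at day 1, 412 and 433 at day 3, and 228 and 211 at day 7. The day 3 rise was 1.65-fold (log2 0.72 ± 0.20, adjusted p = 0.00191) and turned to -0.75 when a gene had to reach 10 counts in every library. YPS1009_Chr15 declined instead, with 335 and 329 CPM in log phase, 258 and 254 at day 1, 251 and 215 at day 3, and 159 and 157 at day 7 (-1.07 ± 0.20 from log phase, adjusted p = 2.35e-05). The day 3 value of this strain was -0.51 from log phase (-0.40, adjusted p = 0.157, without replicate 2 of day 3) and -0.86 ± 0.20 from YPS1009_euploid (adjusted p = 0.00229, and 0.0511 without replicate 2 of YPS1009_Chr15). YPS1009_Chr14 was lower at day 7 than in log phase (-0.75 ± 0.20, adjusted p = 0.00145). The rises called in YPS1009_Chr4 at day 3 (0.48) and YPS1009_Chr12 at day 7 (0.51) were lost without replicate 1 of each group (adjusted p = 0.328 and 0.563), and the YPS1009_Chr4 value was -0.89 with library totals only and -1.29 under the stricter filter, which gave -0.83 for YPS1009_Chr12.

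The second question was whether an extra chromosome changes these transcripts. Over 4 aneuploids, 4 time points and 8 genes, 25 of 128 comparisons with YPS1009_euploid were called higher (19.5%) and 11 lower (8.59%). Over all genes tested, 13% were called higher and 10.5% lower. Of these 36 calls, 24 held under all 5 other settings, 18 without each library and 13 under both. In the fit without YPS1009_Chr4 days 3 and 7 and YPS1009_Chr12 day 7, 19 of 104 were higher and 16 lower, against 13 and 11 for the same comparisons with all libraries. Over all genes in that fit, 13.9% of comparisons were called higher and 9.43% lower.

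The 4 members that lie on a duplicated chromosome were above YPS1009_euploid in 16 of 16 comparisons in the strain that carries their extra copy, of which 12 passed the test. Among all genes on the duplicated chromosome in these strains, 49.9% of comparisons were called higher. In the other 112 comparisons, where the member's copy number was the same in both strains, 13 were called higher and 11 lower, and the median difference was -0.06. Over all genes, those on the duplicated chromosomes included, 13% of comparisons were called higher and 10.5% lower. Averaged over the 4 time points, HSP60 was 2.52-fold higher in YPS1009_Chr12 (log2 1.33 ± 0.14, adjusted p = 5.32e-09) than in YPS1009_euploid, beside a median of 1.09 (log2) for the 475 genes of chromosome XII. HSP78 was 2.64-fold higher in YPS1009_Chr4 (1.40 ± 0.17, adjusted p = 5.57e-08), beside 0.77 for the 742 genes of chromosome IV. HSP10 was 1.80-fold higher (0.84 ± 0.12, adjusted p = 3.69e-06) and MGE1 1.56-fold higher (0.64 ± 0.12, adjusted p = 9.48e-05) in YPS1009_Chr15, beside 0.81 for the 519 genes of chromosome XV. HSP60, HSP78, HSP10 and MGE1 stood at percentiles 62.9, 82.6, 53.8 and 28.1 of the genes on their chromosome.

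**Figure D4:**
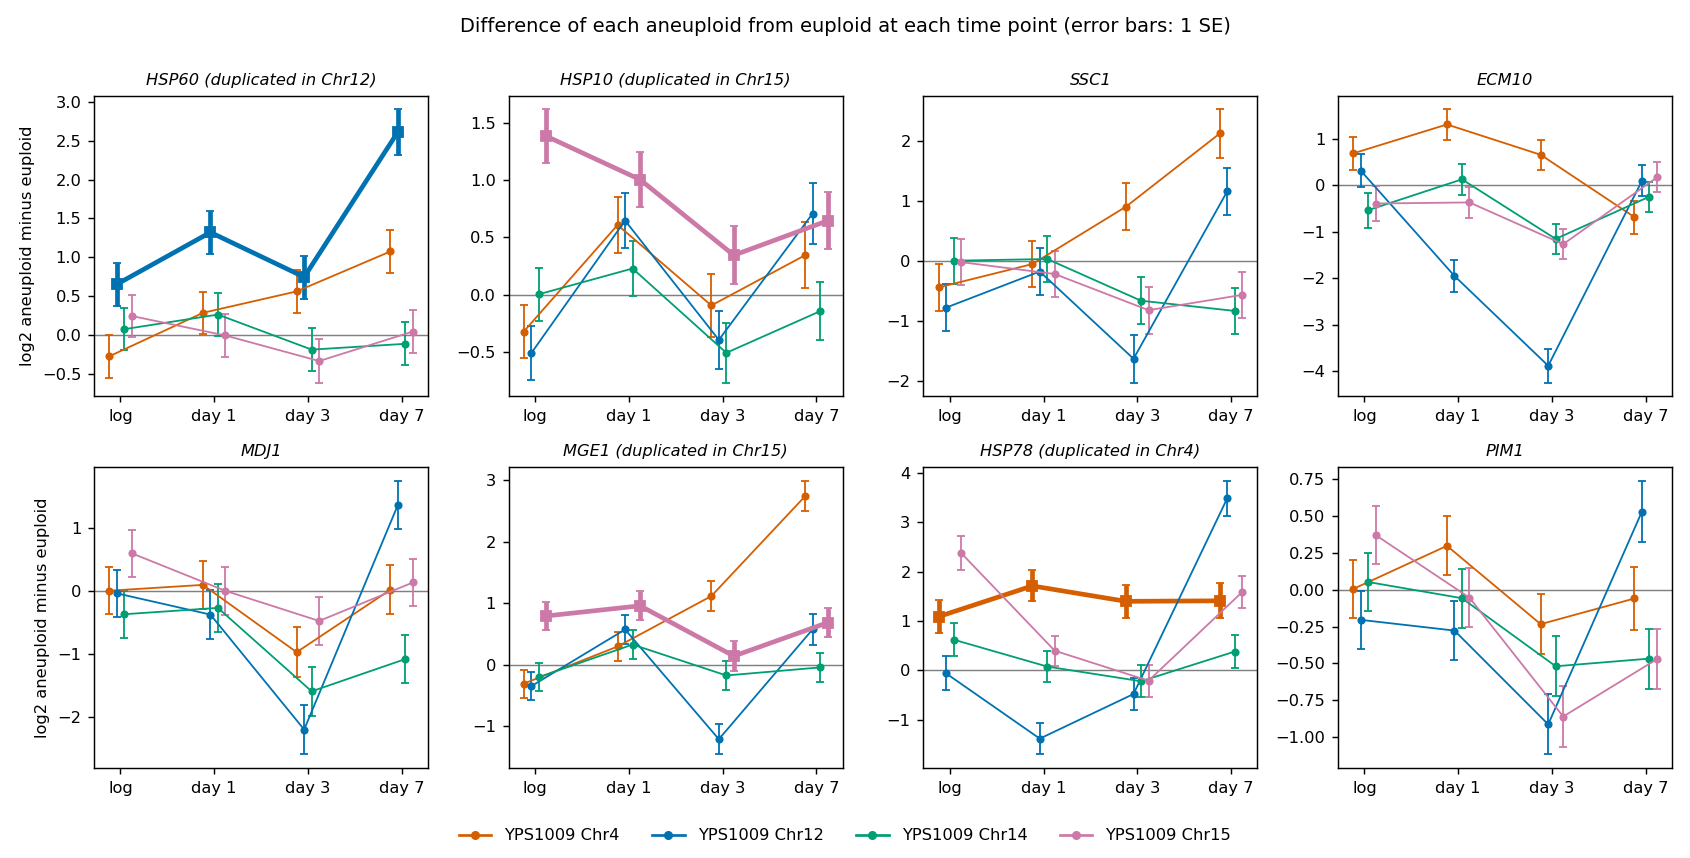
log2 difference of YPS1009_Chr4, YPS1009_Chr12, YPS1009_Chr14 and YPS1009_Chr15 from YPS1009_euploid at each time point, by gene (edgeR, 2 cultures a group, error bars 1 SE). Thick lines with squares mark the strain in which the gene is duplicated, and they lie above 0 at each time point. Thin lines mark the other strains.

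The size of the difference on the extra chromosome varied with time. HSP60 in YPS1009_Chr12 was 0.65 above YPS1009_euploid in log phase and did not pass the test, then 1.32 ± 0.28 at day 1 (adjusted p = 0.000534), 0.75 ± 0.28 at day 3 (adjusted p = 0.018, and 0.088 without replicate 2 of YPS1009_euploid day 3) and 2.61 ± 0.29 at day 7 (adjusted p = 5.85e-08, and 0.306 with only the groups compared in the fit). HSP10 in YPS1009_Chr15 was 1.38 ± 0.24 above in log phase (adjusted p = 7.96e-05), 1.00 ± 0.24 at day 1 (adjusted p = 0.0113, and 0.112 without replicate 2 of YPS1009_euploid day 1), and 0.34 and 0.65 at days 3 and 7, which did not pass the test. MGE1 in YPS1009_Chr15 was 0.79, 0.96, 0.14 and 0.68 above, with calls in log phase and at days 1 and 7 that were each lost without 1 YPS1009_euploid library (adjusted p = 0.114, 0.231 and 0.236). HSP78 in YPS1009_Chr4 was 1.09, 1.71, 1.40 and 1.41 above and was called at each of the 4 time points. The log-phase call was lost without replicate 1 of YPS1009_euploid (0.82, adjusted p = 0.369) and the day 7 call without replicate 2 (0.80, adjusted p = 0.0636), and the day 7 value was -0.34 with library totals only.

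Of the 24 calls off the duplicated chromosomes, 13 were in YPS1009_Chr12 (3 of them at day 1 and 5 each at days 3 and 7), 5 in YPS1009_Chr4, 4 in YPS1009_Chr15 and 2 in YPS1009_Chr14. Many genes were called in YPS1009_Chr12, with 16.2% of all genes higher and 14.8% lower at day 1, and the shares of days 3 and 7 follow below. Those not described elsewhere are HSP10 in YPS1009_Chr12 at day 1 (0.65), ECM10 in YPS1009_Chr4 at day 1 (1.31) and ECM10 in YPS1009_Chr15 at day 3 (-1.27), each of which was lost without 1 library (adjusted p = 0.148 without replicate 2 of YPS1009_Chr12, 0.06 without replicate 1 of YPS1009_euploid and 0.111 without replicate 2 of YPS1009_Chr15). In YPS1009_Chr12 at day 3, ECM10, MDJ1, SSC1, MGE1 and PIM1 were lower than in YPS1009_euploid and only HSP60 was higher. The SSC1 difference was -1.63 ± 0.40 (adjusted p = 0.000696) and the PIM1 difference -0.92 ± 0.20 (adjusted p = 0.000248), and under the stricter filter they stood at -0.62 (adjusted p = 0.0659) and 0.08. At this day, 38.4% of all genes were called higher and 31.5% lower. At day 7 of the same strain 6 members were higher than in YPS1009_euploid and none lower, beside 17.9% and 15.4% of all genes. HSP60 and HSP78 (2.61 and 3.49) held without each library, whereas HSP10 (0.71), SSC1 (1.17), MDJ1 (1.38) and PIM1 (0.53) did not without replicate 1 of YPS1009_Chr12 (adjusted p = 0.762, 0.679, 0.348 and 0.612). HSP10 and PIM1 were also at -0.03 and -0.26 with library totals only. In YPS1009_Chr4 at day 7, SSC1 stood 2.13 ± 0.40 above YPS1009_euploid (adjusted p = 7.43e-05), beside a median of -0.59 for all genes, but 0.39 (adjusted p = 0.183) with library totals only, and HSP60 stood 1.08 ± 0.28 above (adjusted p = 0.00211). The HSP60 value was 0.62 (adjusted p = 0.0721) without replicate 2 of YPS1009_euploid day 7 and -0.69 with library totals only.

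YPS1009_Chr14 carries no extra copy of any member. Of its 32 comparisons with YPS1009_euploid, 2 were called, ECM10 (-1.15 ± 0.32, adjusted p = 0.0166) and MDJ1, both lower at day 3. Few of all genes were called in this strain either. In log phase and at days 1, 3 and 7, 4.45%, 4.95%, 8.94% and 7.21% were higher. The shares called lower were 0.563%, 1.79%, 6.31% and 9.11%. ECM10 at day 3 was -0.99 without replicate 1 of YPS1009_euploid. Averaged over time, MDJ1 was 0.563-fold its euploid level (log2 -0.83 ± 0.19, adjusted p = 0.00208). Averaged over time, 10 of 32 comparisons were higher and 3 lower over the 4 aneuploids, beside 19.7% and 18.4% of all genes. Those not yet given are MGE1 (0.96), SSC1 (0.64), ECM10 (0.49) and HSP60 (0.41) in YPS1009_Chr4, of which SSC1, HSP60 and ECM10 were 0.10 (adjusted p = 0.513), -0.12 and -0.01 with library totals only, HSP78 (1.04) and ECM10 (-0.46) in YPS1009_Chr15, and ECM10 (-1.36) and HSP78 (0.39) in YPS1009_Chr12. ECM10 in YPS1009_Chr15 was -0.16 (adjusted p = 0.263) without replicate 1 of YPS1009_euploid day 7, and HSP78 in YPS1009_Chr12 was 0.25 (adjusted p = 0.183) without replicate 1 of its own day 7.

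The third question was when the changes happened. Between successive days (day 3 against day 1 and day 7 against day 3), 23 of 80 comparisons were higher (28.8%) and 10 lower (12.5%), beside 17.6% and 20.5% of all genes. In the fit without YPS1009_Chr4 days 3 and 7 and YPS1009_Chr12 day 7, 10 of the remaining 56 were higher and 12 lower. With all libraries, the same comparisons gave 9 and 7. Over all genes in the fit without these libraries, 17.7% were higher and 20% lower, so the higher calls were then near the background. In YPS1009_euploid, SSC1 (1.14), ECM10 (2.80), MDJ1 (2.10), MGE1 (1.15) and PIM1 (0.67) rose from day 1 to day 3, while HSP78 fell. Of these, SSC1 was 0.94 (adjusted p = 0.0906) without replicate 1 of day 3, and under the stricter filter MGE1 was 0.28 (adjusted p = 0.142) and PIM1 -0.19. From day 3 to day 7, ECM10 (-1.50), PIM1 (-0.95) and HSP78 (-0.89) fell, and none of these 3 held under every setting. HSP78 was at -0.28 (adjusted p = 0.684) without replicate 2 of day 7, PIM1 at -0.37 (adjusted p = 0.0962) with library totals only, and ECM10 at -1.53 (adjusted p = 0.334) with only the groups compared in the fit. In YPS1009_Chr12 no member was called between days 1 and 3, when 1.04% of all genes were called higher and 2.1% lower. HSP10 was at 110 and 113 CPM at day 1 and 65.4 and 67.3 at day 3, and ECM10 at 25.4 and 22.9, then 35.5 and 52.7. Neither change passed the test. From day 3 to day 7 all 8 rose, with MDJ1 at 9.97-fold, HSP78 8.41-fold, SSC1 7.01-fold, ECM10 5.59-fold, HSP60 3.69-fold, MGE1 3.09-fold, HSP10 1.75-fold and PIM1 1.41-fold, beside 24.6% of all genes that rose and 27.5% that fell. Of 20 cytosolic chaperones, 17 rose and 2 fell in the same comparison (median 2.09), and at day 7 17 were above YPS1009_euploid and none below (median 2.66). HSP10 and PIM1 were lost without replicate 1 of YPS1009_Chr12 day 7 (0.24 and 0.14 on the log2 scale, adjusted p = 0.537 and 0.661), and both were below 0 under the stricter filter (-0.05 and -0.35). The share of counts that the 8 genes took together was 0.558% and 0.397% at day 7 of YPS1009_Chr12, against 0.180% and 0.193% at day 3.

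Other genes of these pathways were taken from 4 lists chosen by function. In YPS1009_euploid, 19 of 22 genes of mitochondrial protein import were lower at day 1 than in log phase and none higher, with a median log2 change of -1.38. At day 3, 14 were lower and 3 higher, and at day 7 13 and 2. Beside them, 34.3% of all genes were higher and 35% lower at day 1, 38.7% and 41.4% at day 3, and 37.5% and 38.2% at day 7. At day 3 TOM40, the channel of the outer membrane, was at -3.31 ± 0.26 (adjusted p = 1.34e-12) and TOM5, a small subunit of the same complex, at -3.52 ± 0.34. TIM21 and ERV1, a subunit of the inner-membrane translocase and the oxidase of the intermembrane space, were higher by 1.74 ± 0.27 and 1.73 ± 0.32. Of 10 Hsp70 and J-protein partners, 3 were higher and 2 lower at day 3. JID1, a J protein, was higher by 6.17 ± 0.36 and SSQ1, the Hsp70 of iron-sulfur cluster assembly, by 2.29 ± 0.24. PAM18, the J protein of the import motor, had 2 and 3 counts at day 3 against 476 and 321 in log phase, and MCX1, a ClpX homolog, was at -2.07 ± 0.35.

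Of 18 mitochondrial proteases and prohibitins, 7 were higher and 6 lower at day 3 in YPS1009_euploid. MGR3, an adaptor of the i-AAA protease, was higher by 3.03 ± 0.38, and OCT1, the octapeptidyl peptidase, was at -2.52 ± 0.34. MAS2, a subunit of the processing peptidase, had 0 and 1 counts at day 3, against 651 and 438 in log phase. SOM1, a component of the inner membrane peptidase, had 6 and 8 counts at day 3 and 4 and 3 in log phase. Of 20 cytosolic chaperones, 9 were higher and 9 lower. SSA3 and HSP26, a stress-induced Hsp70 and a small heat shock protein, were higher by 8.23 ± 0.52 and 7.51 ± 0.58, whereas 2 Hsp70s of growing cells were lower. SSA2 had 7 and 13 counts at day 3, against 22766 and 16327 in log phase, and SSB1 had 11 and 17 counts, against 14063 and 9413. The SSA and SSB genes have close paralogs, so that their counts are uncertain.

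The genes whose group means followed those of a member most closely over the 20 groups were sought in the whole table, as a description with no test. Those nearest to HSP60 were RPS30A (r = 0.83), a ribosomal protein gene, CPR6 (0.78), a cyclophilin that binds Hsp90, and YDL012C (0.77). Nearest to SSC1 were MSS116 (0.91), a mitochondrial RNA helicase, RAD6 (0.90), a ubiquitin-conjugating enzyme, and ISD11 (0.90), which acts in iron-sulfur cluster assembly. Nearest to HSP78 were HSP42 (0.94), a small heat shock protein, MRP8 (0.93) and TPS2 (0.91), the trehalose phosphatase. RPS30A and CPR6 lie on chromosome XII with HSP60, and HSP42 and TPS2 on chromosome IV with HSP78. Each was thus duplicated in the same aneuploid as its member, and the part of this in r was not tested. Among the members themselves, HSP60 and its lid HSP10 gave r = 0.44, SSC1 and ECM10 0.25, ECM10 and HSP78 0.69, and ECM10 and HSP10 -0.70.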

How the data were processed

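RNA of 5 haploid YPS1009 strains at 4 time points was measured in 40 libraries. Per the deposited table, values are raw gene counts made by the authors from stranded, rRNA-depleted total RNA. The Methods name bwa-meme, and the submitters' processing notes name Trimmomatic 0.39, BWA 0.7.12-r1039 and HTSeq 0.7.2. Reads were mapped to S288c with YPS1009 SNPs, and its release is not given in the sources used here. Labels count 24, 72 and 168 h from the start of culture, whereas the Methods count from the log-phase harvest. Extra chromosomes came from the study's strain list. The Methods describe a spike-in of Sz. pombe cells as a scale per cell; the table holds no Sz. pombe genes, and that scale was not used here.

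Genes reaching 10 counts in 2 or more libraries entered a fit by edgeR 4.0.16 (R 4.3.3, limma 3.58.1; TMM, quasi-likelihood, prior count 0.125, 1 coefficient per group), adjusted by Benjamini and Hochberg's method at 0.05 over all 5864 genes. SE is the absolute log2 change divided by the square root of F. Within-library ratios used a pseudocount of 0.5 and exact permutation tests. Alternatives were RLE, upper-quartile or no composition factors, DESeq2 1.42.0, other filters, only the groups compared, the replicate number as a block, other pseudocounts, medians and leaving out each library. Replicates are 2 samples of 1 group. For edgeR, SE and p-values rest on a spread estimated over all 20 groups together. That spread can be smaller than the spread of the cultures in the groups compared. Deviations of same-numbered cultures correlated by a median of 0.03 within a strain (-0.13 to 0.38). The main fit therefore did not pair cultures by number, although a low median over all genes cannot exclude a pairing. No 2 libraries agreed within counting noise (chi-square per degree of freedom at least 3.05).

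Members and lists were chosen with earlier results of these data known. All 8 members are named throughout, from each list the 2 highest and 2 lowest called genes of euploid day 3 against log phase, and the 3 genes most like HSP60, SSC1 and HSP78. Promoters shown are those of the members with the highest and lowest euploid change at day 3 and those with a heat shock element. Motifs, positions and symbols came from RefSeq R64, which matched 6025 genes. Scripts were tested on simulated data.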

Additional observations from a re-analysis of the deposited data

Results flagged for a closer look

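For 20 of 96 combinations of gene, strain and day (20.8%, beside 17.4% over all genes), the change from log phase in an aneuploid differed from that in YPS1009_euploid by edgeR's test of the difference itself. All values are log2 differences between the changes, aneuploid minus euploid, ± SE.

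In YPS1009_Chr4, MGE1 differed by 1.42 ± 0.33 at day 3 (adjusted p = 0.00278) and 3.05 ± 0.33 at day 7 (adjusted p = 8.2e-08), and the day 3 call was lost with library totals only (0.29, adjusted p = 0.376). At day 7 of the same strain, SSC1 differed by 2.57 ± 0.56 (adjusted p = 0.000693), which was 0.54 (adjusted p = 0.19) with library totals only, and HSP60 by 1.35 ± 0.39 (adjusted p = 0.00759), which was -0.71 with library totals only. ECM10 differed by -1.37 ± 0.51 (adjusted p = 0.0307), and by -0.18 (adjusted p = 0.691) without replicate 1 of YPS1009_euploid day 7.

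In YPS1009_Chr12, ECM10 differed by -2.27 ± 0.50 at day 1 (adjusted p = 0.00201) and -4.21 ± 0.50 at day 3 (adjusted p = 1.13e-07). HSP10 differed by 1.16 ± 0.34 at day 1 (adjusted p = 0.0164, and 0.0746 without replicate 1 of its log phase) and 1.22 ± 0.35 at day 7 (adjusted p = 0.0165). At day 3, MDJ1 differed by -2.17 ± 0.54 (adjusted p = 0.00115), MGE1 by -0.86 ± 0.33 (adjusted p = 0.0269) and PIM1 by -0.71 ± 0.28 (adjusted p = 0.0325), of which MGE1 and PIM1 stood at 0.13 and 0.27 when a gene had to reach 10 counts in every library. At day 7, HSP60 differed by 1.96 ± 0.39 (adjusted p = 0.000779), SSC1 by 1.94 ± 0.55 (adjusted p = 0.0146) and HSP78 by 3.54 ± 0.49 (adjusted p = 6e-06), and none of these 3 passed the test with only the groups compared in the fit (adjusted p = 0.283, 0.357 and 0.117). Without replicate 1 of day 7, HSP10 was at 0.65 (adjusted p = 0.209) and SSC1 at 1.05 (adjusted p = 0.193).

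In YPS1009_Chr15, HSP78 differed by -1.98 ± 0.45 at day 1 (adjusted p = 0.00792, and 0.1 without replicate 1 of YPS1009_euploid log phase) and -2.59 ± 0.47 at day 3 (adjusted p = 0.000173). HSP10 differed by -1.04 ± 0.34 at day 3 (adjusted p = 0.0265, and 0.1 without replicate 2 of that day). PIM1 differed by -1.23 ± 0.29 at day 3 (adjusted p = 0.00208) and -0.84 ± 0.29 at day 7 (adjusted p = 0.0468, and 0.134 without replicate 1 of YPS1009_euploid log phase). No member was called in YPS1009_Chr14, where few of all genes were. By the same test, 0.426%, 1.96% and 1.55% of all genes were higher in this strain at days 1, 3 and 7, and 0.648%, 1.47% and 2.8% lower. Of the 20 calls, 12 held under all 5 other settings, 11 without each library and 8 under both. With only the groups compared in the fit, which is not among these 5, 8 of the 20 were lost, of which 4 had held under all 5.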

How the results depend on the processing

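Of 1027 values of counts and ratios under alternatives, 993 were graded as unchanged, as were 5565 of 6240 member changes. A count of calls has no direction and was graded by the size of its shift. A ratio or member change called under neither setting was graded as unchanged whatever its sign, so these totals do not show that direction was kept. The turned signs listed below are those of called changes only. The cause of the shifts below was not tested. With genes kept only at 10 counts in every library, 72 changes from log phase were lower (38 in the report), 25 between successive days (10) and 17 against YPS1009_euploid (11). The last count was 18 with library totals only and 20 with only the groups compared. Averaged over time, 5 were lower with library totals only and 6 by DESeq2 (3 in the report). Differences in the change from log phase numbered 31 with library totals only and 31 by DESeq2 (20). An alternative chosen after seeing the data left out the 6 libraries of YPS1009_Chr4 days 3 and 7 and YPS1009_Chr12 day 7. In it, 29 of 96 changes from log phase and 10 of 56 between successive days were higher. With all libraries, the same comparisons gave 29 and 9. Over all genes in the fit without these 6 libraries, 37% and 17.7% of these comparisons were called higher.

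With only the groups compared in the fit, 6 of the 84 calls against log phase and 10 of the 36 against YPS1009_euploid were lost. So were 6 of the 33 between successive days, 4 of the 13 averaged over time and 8 of the 20 differences in the change.

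Leaving out each library in turn gave 43 to 47 higher and 36 to 39 lower against log phase, 18 to 35 higher and 8 to 15 lower against YPS1009_euploid, 2 to 12 lower averaged over time (12 without YPS1009_euploid day 7 replicate 2, 7 without YPS1009_Chr12 day 7 replicate 1) and 13 to 28 differences in the change (13 without YPS1009_euploid log-phase replicate 1).

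With library totals only, the sign turned for YPS1009_Chr4 day 3 against log phase (MDJ1 -0.22, MGE1 -0.43, PIM1 -0.89) and against day 1 (MDJ1 -0.32), for YPS1009_Chr12 day 7 against day 3 (PIM1 -0.30), for day 7 against YPS1009_euploid in YPS1009_Chr4 (HSP60 -0.69, HSP78 -0.34) and YPS1009_Chr12 (HSP10 -0.035, PIM1 -0.26), for YPS1009_Chr4 averaged over time (HSP60 -0.12, ECM10 -0.0061) and for the YPS1009_Chr4 day 7 difference in change (HSP60 -0.71). With 10 counts in every library it turned for day 3 against log phase in YPS1009_euploid (PIM1 -0.75), YPS1009_Chr4 (SSC1 -0.30, MDJ1 -0.61, MGE1 -0.83, PIM1 -1.29) and YPS1009_Chr14 (MDJ1 -0.21), for day 7 against log phase in YPS1009_Chr4 (MDJ1 -0.019) and YPS1009_Chr12 (HSP60 -0.36, PIM1 -0.83), for day 3 against day 1 in YPS1009_euploid (PIM1 -0.19) and YPS1009_Chr4 (MDJ1 -0.27), for YPS1009_Chr12 day 7 against day 3 (HSP10 -0.055, PIM1 -0.35), for YPS1009_Chr12 against YPS1009_euploid at day 3 (PIM1 0.082) and for its day 3 difference in change (MGE1 0.13, PIM1 0.27).

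Among ratios, HSP78 to SSC1 in YPS1009_Chr14 was 0.57 with the replicate number as a block (adjusted p = 0.0536, exact permutation), 0.52 by medians (adjusted p = 0.0679) and 0.44 to 0.71 without single libraries (adjusted p up to 0.101). The same ratio in YPS1009_Chr4 was 1.02 by medians (adjusted p = 0.0388). SSC1 to MGE1 against log phase was 0.33 at day 1 and 0.55 at day 7 in the report, 0.30 (adjusted p = 0.148) and 0.36 (adjusted p = 0.0606) by medians, and 0.26 to 0.40 and 0.45 to 0.64 without single libraries. HSP60 to HSP10 in YPS1009_Chr14 was 0.10 to 0.19 without single libraries. The replicate block changed no other ratio call and moved no count of calls by over 1.5 times. The lowest counts of ECM10 and HSP10 in a library were 41 (YPS1009_Chr14 log phase) and 30 (YPS1009_Chr4 day 7), which limits those values.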
